A study of Mus musculus with 8 samples.

Results

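The genes described here are 10 members of the p53 and Gadd45 damage response, measured by RNA-seq in isolated neonatal cardiomyocytes (NCMs). They are the rows of the deposited count table whose Entrez identifier maps to Trp53, Mdm2, Mdm4, Bbc3, Bax, Ccng1, Trp53inp1, Gadd45a, Gadd45b or Gadd45g, 10 of 27179 genes in the table. All 10 had enough counts to be tested, among 14966 tested genes, and the lowest count of any of them in any library was 126. Each library held NCMs from 1 male heart of a C57Bl/6 J pup at postnatal day 0. Dams breathed either filtered air (FA) or diesel exhaust (DE) between E0.5 and E17.5 (embryonic days), and there were 4 libraries of each group, numbered 2, 3, 4 and 6 for FA and 1, 3, 5 and 7 for DE. The study describes 1 procedure for both groups: mating took place in FA, hearts were trimmed of atria and vessels, cells were released with Liberase, and fibroblasts were left to attach to a plate for 1 hour in medium with Ara-C, an inhibitor of DNA synthesis. The libraries' short names carry 11 or 12 ahead of the replicate number. All 4 FA libraries and DE replicates 1 and 7 carry 11, while DE replicates 3 and 5 carry 12, and what this prefix stands for is not given in the sources used here. Whether the pups came from separate litters is not given either, so p-values measure the spread between these hearts.

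Trp53 encodes p53, a transcription factor that accumulates when DNA is damaged and activates genes for cell cycle arrest, repair and death. Mdm2 is a ubiquitin ligase that marks p53 for degradation and is itself a p53 target, and Mdm4 is a related protein that binds p53 and blocks its activity. Loss of either of these inhibitors is lethal to the mouse embryo unless p53 is also lost. Bbc3, which encodes Puma, and Bax are killers of the Bcl2 family that act at the mitochondrion, Ccng1 encodes cyclin G1 and Trp53inp1 a stress-induced nuclear protein, and all 4 are known p53 targets. The 3 Gadd45 proteins are small stress sensors that bind Pcna, Cdk1 and the kinase Map3k4, and of these Gadd45a is the classical p53 target.

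Because these genes were grouped by their tie to p53, the promoter sequences that carry the best matches to its binding site are shown first. The p53 response element is a pair of 10-base half-sites, each with the core CNNG, placed here back to back. It was searched in the RefSeq promoter windows of GRCm38.p6, which run from 250 bases before to 50 after a start site. The element is its own reverse complement, so 1 search covers both strands. Both cores had to match, and mismatches were counted over the other letters. Of the members, 9 matched an entry, with 12 windows between them, and Trp53inp1 did not. Of all 32851 windows, 0.067% held a site with at most 1 mismatch and 1.38% a site with at most 3. Ccng1 held a site with 1 mismatch, which starts 195 bases before the start site at chr11:40755462-40755481 on the minus strand. Bbc3 and Trp53 each held a site with 3 mismatches, at chr7:16309486-16309505 and chr11:69580284-69580303 on the plus strand, and no other member reached that level. Of 34 other p53 targets examined, 26 had a window, 5 of them with a site of at most 3 mismatches. Among these, 2 reached 1 mismatch, Cdkn1a and Gtse1, at chr17:29090928-29090947 and chr15:85859945-85859964 on the plus strand. Sites of these targets with more mismatches are not shown, unlike those of the members. The limits on mismatches were chosen after the windows had been searched. In the sequences, written 5′ to 3′ on the gene's strand with 20 bases on either side, capitals mark the site.
Ccng1: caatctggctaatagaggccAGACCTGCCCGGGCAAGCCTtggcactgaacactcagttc
Bbc3: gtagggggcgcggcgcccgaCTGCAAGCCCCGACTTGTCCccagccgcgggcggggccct
Trp53: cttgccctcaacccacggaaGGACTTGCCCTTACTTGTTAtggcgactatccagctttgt
Cdkn1a: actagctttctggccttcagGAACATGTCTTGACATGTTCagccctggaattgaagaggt
Gtse1: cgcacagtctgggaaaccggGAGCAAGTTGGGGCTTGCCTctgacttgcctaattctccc
A match describes these letters only, and binding of p53 was not measured.

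Library totals ran from 17943024 to 39839737 counts. Cardiomyocyte markers were abundant in every library, but their summed level over 12 genes was 80474 to 85690 CPM (counts relative to library size) in FA and 68223 to 79164 CPM in DE, so every DE library lay below every FA library. Of these 12 genes 10 were lower in DE, and Myh6 and Pln were called lower and Myh7 higher. Myh6 alone averaged 23299 CPM in FA and 14622 CPM in DE. Tnnt2, Tnni3, Myl2 and Myl3 were near 0, at log2 fold changes from -0.07 to -0.05. The 2 higher genes were Tnni1 (0.15) and Myh7 (0.53). Of the 9 leukocyte markers, 5 were too low to be tested, and the 9 summed to 11.9 to 25.8 CPM. The 9 fibroblast markers summed to 2038 to 3500 CPM in FA and 3700 to 6245 CPM in DE, so the groups did not overlap. All 9 were higher in DE and 3 passed the test, with Col1a1 at a log2 fold change of 0.95 (adjusted p = 0.00874). Of 5 tested erythroid markers all were higher in DE and 1 was called (Slc4a1, log2 fold change 0.95, adjusted p = 0.0422), and of 8 endothelial markers 7 were higher and none was called. None of these cell type markers was at 0 in all 8 libraries. Libraries also differed in how level followed exon length over all tested genes. A doubling of length went with a log2 difference in level from -0.174 in DE replicate 5 and -0.134 in DE replicate 3 up to 0.146 in FA replicate 4 and 0.165 in FA replicate 2, with the other 4 libraries from -0.074 to 0.053.

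To assess whether in utero exposure to DE altered the p53 and Gadd45 genes, counts of DE and FA libraries were compared. Calls required a difference of 25% or more together with an adjusted p, over all tested genes, of 0.05 or less. With the quasi-likelihood test of edgeR, none of the 10 genes was called, where 5.80% of all tested genes were, 3.58% higher and 2.22% lower in DE. That split, 536 higher and 332 lower, was 803 and 217 with scaling by library totals alone. At an unadjusted p under 0.05 there were 2, Bbc3 and Mdm4, against 25.6% of tested genes, and DESeq2 called 1, Bbc3, where it called 10.9% of all genes. Levels were higher in DE for 6 genes and lower for 4. Their median log2 fold change was 0.03, beside 0.00 for all tested genes. Levels are given as CPM scaled by library factors, and folds are DE over FA with 95% intervals. In bulk RNA, fewer cells of a type and less RNA per cell cannot be told apart.

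**Figure D1:**
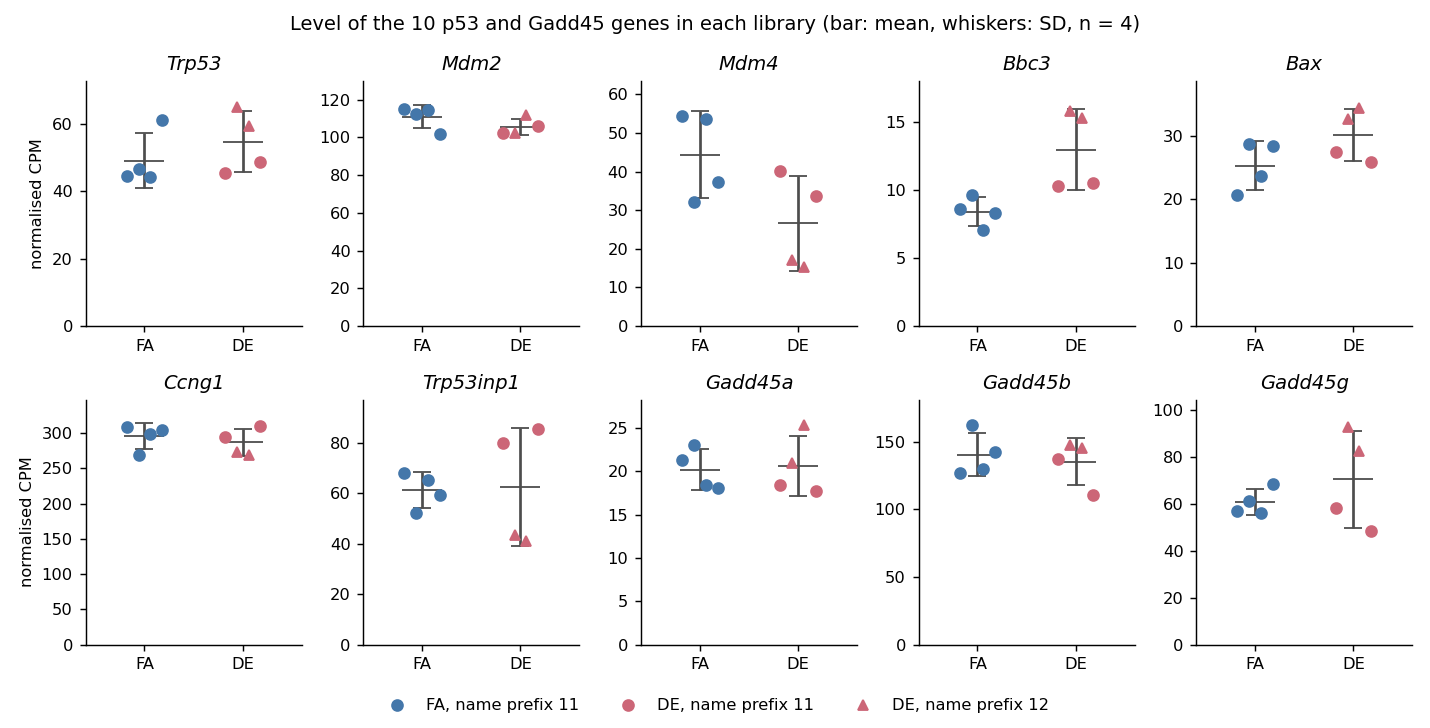
Each panel plots 1 gene, with the level in each library in CPM on a linear axis from 0, FA in blue and DE in red, and triangles for the DE libraries with name prefix 12. Horizontal bars are means and whiskers SD over 4 libraries. For Bbc3 all DE points lie above all FA points. In 9 of the 10 genes, all but Mdm2, both triangles lie on 1 side of both DE circles. The share of all tested genes that do so was not counted.

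Bbc3, the killer that answers p53 in many tissues, was the member with the smallest p. It lies at chr7:16308398-16318334 of GRCm38 (Entrez gene 170770), where its exons hold 65.2% G and C, the most of the 10 genes. In FA it stood at 8.61, 9.67, 7.11 and 8.31 CPM in replicates 2, 3, 4 and 6. In DE it stood at 10.3, 15.8, 15.3 and 10.6 CPM in replicates 1, 3, 5 and 7. Every DE library lay above every FA library, a pattern that 14.7% of all tested genes showed in 1 direction or the other, and Bbc3 was the only member to show it. The FA mean was 8.42 ± 1.05 CPM and the DE mean 13.0 ± 2.98 CPM (SD, n = 4). The log2 fold change was 0.63 ± 0.17 (SE), with an interval from 0.26 to 1.00 and an adjusted p of 0.0535. Of 21 alternatives it passed in 6 and did not in 15. It passed the threshold with DESeq2 (adjusted p = 0.0115), with the likelihood ratio test (0.0136), with library totals alone (0.0368), without the filter on low counts (0.0466), without DE replicate 1 (0.0295) and without DE replicate 7 (0.0480). Among those in which it did not pass, the adjusted p was 0.0617 with limma-voom and 0.118 to 0.163 without FA replicate 2, FA replicate 4, DE replicate 3 or DE replicate 5. With offsets for length and GC content the log2 fold change was 0.35 (adjusted p = 0.0554). With the prefix 11 libraries alone it was 0.30 (adjusted p = 0.372) for 4 FA and 2 DE libraries, a fit that called 1.75% of all genes. The 2 highest levels were those of DE replicates 3 and 5.

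Bax, the pore-forming partner on which Puma's action converges, moved less. It stood at 20.6, 28.6, 23.6 and 28.3 CPM in FA and at 27.4, 32.6, 34.4 and 25.9 CPM in DE. The 2 prefix 12 libraries were above all FA libraries and the 2 others lay within the FA range. The log2 fold change was 0.25 (interval -0.04 to 0.55, adjusted p = 0.263). The annotation places a second protein-coding gene, Gm45808, on the same strand across the 5′ end of Bax, and how reads in the shared stretch were assigned is not given in the sources used here.

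Of the inhibitors of p53, Mdm4 had the largest log2 fold change of the 10 genes in either direction. It lies at chr1:132986105-133030587 of GRCm38 (Entrez gene 17248). It stood at 54.4, 32.2, 53.6 and 37.3 CPM in FA and at 40.2, 17.1, 15.4 and 33.7 CPM in DE. DE replicates 3 and 5 lay below all FA libraries, and DE replicates 1 and 7 lay within the FA range. The FA mean was 44.4 ± 11.3 CPM and the DE mean 26.6 ± 12.3 CPM (SD, n = 4). The log2 fold change was -0.75 ± 0.30 (SE), with an interval from -1.39 to -0.10 and an adjusted p of 0.146. With the prefix 11 libraries alone it was -0.27 (adjusted p = 0.577), and without DE replicate 1 it was -1.02 and was called (adjusted p = 0.0475). Mdm4 has the longest exon sequence of the 10 genes, 10859 bases, and its highest and lowest libraries were also those with the highest and lowest trend with length. Once the trends of each library with length and GC content were removed through offsets, the log2 fold change of Mdm4 was -0.54 and was called (adjusted p = 0.0470), where 1549 of 13851 genes (11.2%) were called. A processed pseudogene, Gm29257, lies on the opposite strand within Mdm4 and was not analysed here.

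Mdm2 varied little. It stood at 115.0, 112.6, 114.6 and 101.7 CPM in FA and at 102.3, 102.5, 111.6 and 105.8 CPM in DE, with overlapping groups. Its log2 fold change was -0.07, and the interval of its fold, 0.833 to 1.09, lay inside a difference of 25% either way (adjusted p = 0.630).

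Trp53 itself stood at 44.3, 46.4, 44.1 and 61.1 CPM in FA and at 45.4, 64.8, 59.3 and 48.7 CPM in DE. FA replicate 6 stood apart from the other 3 FA libraries and lay among the higher DE libraries. The log2 fold change was 0.16 (interval -0.16 to 0.47, adjusted p = 0.517), and with the prefix 11 libraries alone it was -0.06 (adjusted p = 0.890).

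Ccng1 was the most abundant member by counts. It stood at 308.8, 268.4, 299.2 and 305.2 CPM in FA and at 294.9, 273.6, 268.6 and 310.3 CPM in DE. Its fold was 0.971 with an interval from 0.843 to 1.12, again inside 25% either way (adjusted p = 0.801). Trp53inp1 stood at 68.1, 52.2, 65.4 and 59.4 CPM in FA and at 79.8, 43.3, 41.0 and 85.6 CPM in DE. The DE libraries thus lay on both sides of all 4 FA libraries, 2 above and 2 below. The log2 fold change was 0.02 with a wide interval, -0.47 to 0.52 (adjusted p = 0.962). With the prefix 11 libraries alone it was 0.43 (adjusted p = 0.125), and with the prefix as a term it was also 0.43 (adjusted p = 0.0813).

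The 3 Gadd45 genes overlapped between groups. Gadd45a stood at 21.3, 23.0, 18.5 and 18.05 CPM in FA and at 18.4, 21.0, 25.3 and 17.7 CPM in DE, with a log2 fold change of 0.03 (interval -0.27 to 0.33, adjusted p = 0.910). Gadd45b, the member induced by NF-κB and TGF-β signals, stood at 127.2, 162.2, 129.7 and 142.4 CPM in FA and at 137.4, 147.8, 145.6 and 110.6 CPM in DE. Its fold was 0.965 with an interval from 0.804 to 1.16, inside 25% either way (adjusted p = 0.814). With offsets for length and GC content its log2 fold change was -0.26 (adjusted p = 0.0361), under the 25% required for a call. Gadd45g stood at 57.0, 61.0, 56.0 and 68.3 CPM in FA and at 58.2, 92.6, 82.2 and 48.2 CPM in DE. Its 2 highest libraries were DE replicates 3 and 5 and its lowest was DE replicate 7, with a log2 fold change of 0.22 (interval -0.18 to 0.62, adjusted p = 0.477). For Gadd45g this value turned to -0.19 with the prefix 11 libraries alone, also not called. An antisense gene, E230016M11Rik, overlaps Gadd45a, but held only 16 to 52 counts per library, beside 327 to 1015 for Gadd45a.

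**Figure D2:**
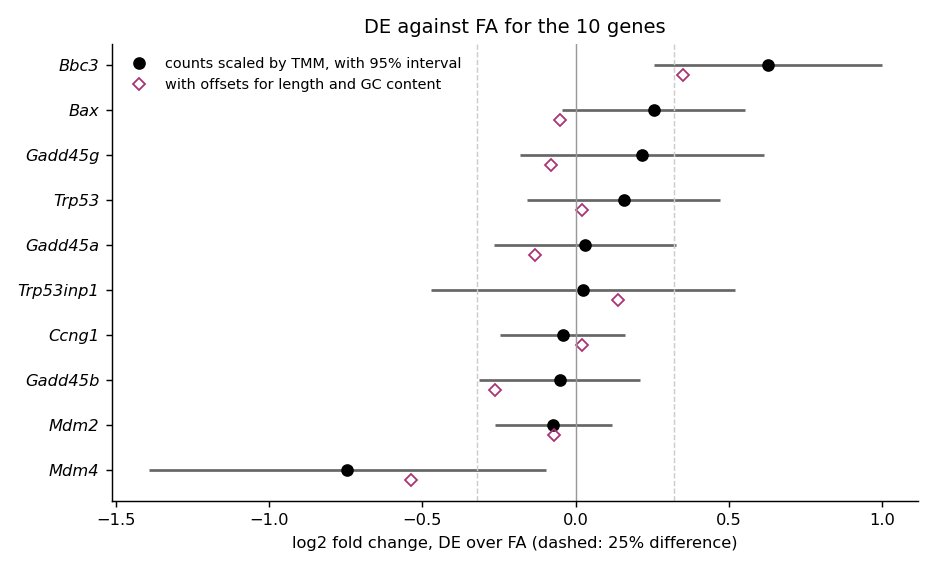
Log2 fold change of DE over FA for the 10 genes, with 95% intervals as lines, and open diamonds for the value with offsets for length and GC content; dashed lines mark a 25% difference. Only the intervals of Bbc3 and Mdm4 leave out 0, and the diamonds of Bax, Gadd45g, Gadd45a and Ccng1 lie on the other side of 0 from their points.

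Per kilobase of exon, which allows levels of different genes to be compared, the order over both groups ran from Gadd45b and Ccng1 down to Mdm4. Gadd45b held 102 CPM per kb in FA and 98.7 in DE, and Ccng1 84.1 and 81.7, with ranges over libraries that overlapped. Gadd45g (56.6 and 65.6) also overlapped with Ccng1. Mdm2 (35.3 and 33.6), Bax (29.2 and 34.7) and Trp53 (26.2 and 29.2) formed a middle group whose ranges overlapped. Gadd45a held 16.5 and 16.9 CPM per kb, a range of 14.5 to 20.7 over libraries that overlapped with that of Trp53inp1, at 7.58 to 15.8, but not with that of Trp53. Bbc3 held 4.64 and 7.16 CPM per kb and Mdm4 4.09 and 2.45, so the inhibitor Mdm4 was at a lower level than Mdm2 per kilobase in all libraries.

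Pairs of members that oppose or resemble each other were also compared as ratios of counts within a library, which do not depend on the library's scaling. These ratios are not corrected for length or GC content, nor for the library's trends with them. Mdm2 has 3145 exon bases beside 10859 for Mdm4, and Bax 867 beside 9157 for Bcl2. The 5 differences were tested with exact two-sided permutation tests over the 8 libraries, where the smallest possible p is 0.0286, and all had an adjusted p of 0.543. Mdm2 exceeded Mdm4 by 2.11 to 3.49 times in FA and by 2.55 to 7.25 times in DE, a difference in log2 ratio of 0.75 (exact permutation p = 0.143). The 2 highest ratios, 5.99 and 7.25, were those of DE replicates 3 and 5, and with the prefix 11 libraries alone the difference was 0.14. The ratio of Bax to Bcl2, the killer against a guardian of the same family, ran from 1.14 to 1.92 in FA and from 1.01 to 1.57 in DE (difference -0.17, exact permutation p = 0.514). The ratio of Gadd45a to Gadd45b differed by 0.08 (exact permutation p = 0.543), that of Gadd45a to Gadd45g by -0.15 (p = 0.4) and that of Gadd45b to Gadd45g by -0.23 (p = 0.257).

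**Figure D3:**
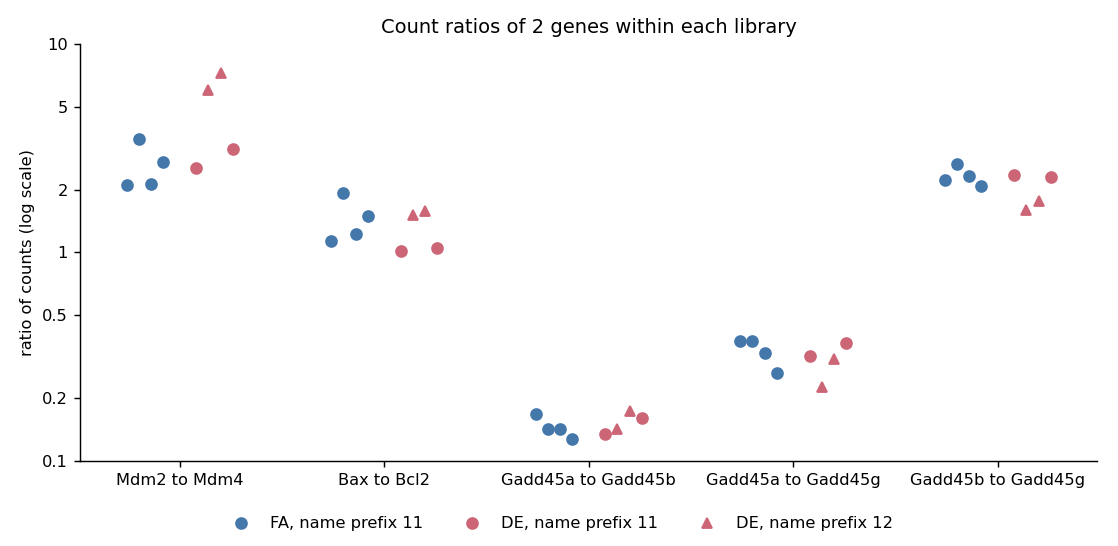
Ratio of the counts of 2 genes in each library, on a log axis, with FA in blue and DE in red and triangles for DE libraries with name prefix 12. The groups overlap in all 5 ratios, and the ratio of Mdm2 to Mdm4 is highest in the 2 triangles, at 5.99 and 7.25.

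Within DE, the libraries of the 2 name prefixes differed in several of these genes. A model with 3 groups was fitted to the 8 libraries, and 3 of the 10 members were called between DE replicates 3 and 5 and DE replicates 1 and 7, where 2.11% of 15484 tested genes were called. Mdm4 averaged 16.2 CPM with prefix 12 and 36.9 CPM with prefix 11, a log2 difference of -1.19 ± 0.23 (SE, adjusted p = 0.0361). Trp53inp1 averaged 42.2 and 82.7 CPM, a difference of -0.97 ± 0.14 (adjusted p = 0.0257). Gadd45g averaged 87.4 and 53.2 CPM, a difference of 0.71 ± 0.15 (adjusted p = 0.0389). Bbc3 differed by 0.58 and was not called (adjusted p = 0.0744), though it was with DESeq2 (0.0270), the likelihood ratio test (0.0206), no low-count filter (0.0400) and FA replicate 3 left out (0.0380). In 9 of the 10 members, all but Mdm2, both prefix 12 libraries lay on 1 side of both prefix 11 DE libraries. The share of all tested genes with this pattern was not counted, so it cannot be called particular to these genes. With any of the 4 DE libraries left out, none of the 10 was called, with adjusted p from 0.0756 to 0.264 for these 3 genes, but those fits called only 0 to 19 genes in all. With offsets for length and GC content, Mdm4 differed by -0.66 (adjusted p = 0.0274) and Trp53inp1 by -0.58 (adjusted p = 0.0223) and both were called, while Gadd45g differed by 0.31 (adjusted p = 0.229) and was not. The prefix 12 libraries were the 2 with the most negative trend with length, and also stood apart in the trend with GC content, at a log2 difference of 0.175 and 0.204 for 10 points of GC, beside -0.128 to 0.064 in the other 6 libraries. The 2 genes lower in them have the longest exon sequences of the 10, 10859 bases for Mdm4 and 5404 for Trp53inp1, while Gadd45g has 1071. Their GC content is 43.3% and 38.8%, and that of Gadd45g 59.9%. Since no FA library carries prefix 12, prefix and exposure cannot be told apart in DE replicates 3 and 5.

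**Figure D4:**
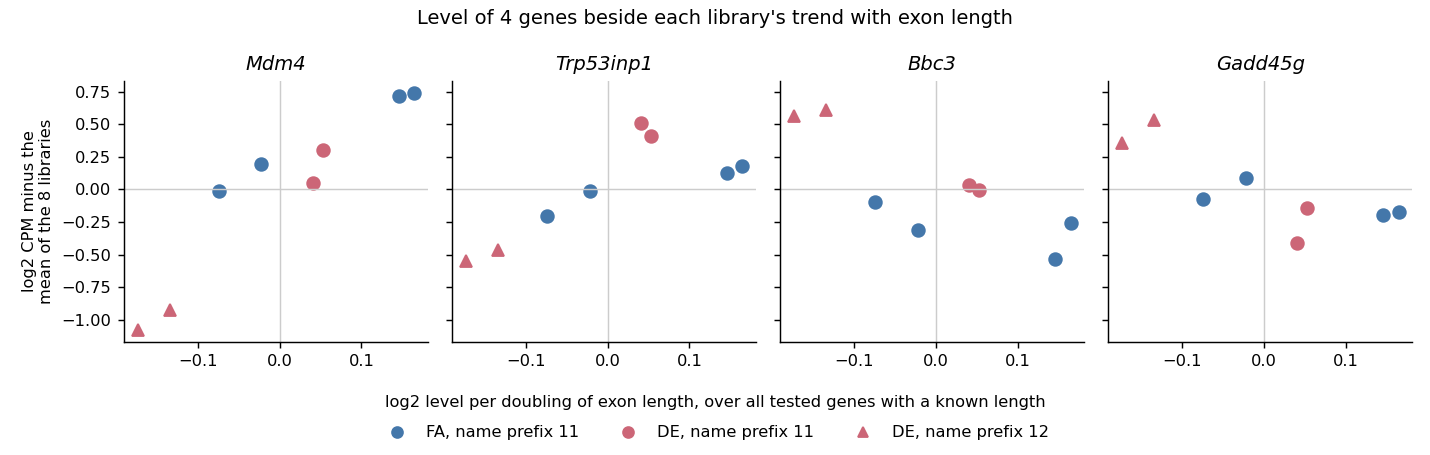
Level of Mdm4, Trp53inp1, Bbc3 and Gadd45g in each of the 8 libraries, as log2 CPM minus the mean of all libraries, against the library's trend with exon length in log2 level per doubling of length. The 2 DE libraries with name prefix 12 (triangles), with trends of -0.174 and -0.134, hold the lowest Mdm4 and Trp53inp1 and the highest Bbc3 and Gadd45g.

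The wider pathway was described with lists of p53 targets, p53 regulators, the Bcl2 family, Gadd45 partners, 4 genes that the study groups under GADD45 signaling, and immediate early genes. Of 107 tested genes in these lists, 13 were called, 12 higher and 1 lower in DE. These include the 4 genes of the study, all called higher, which it picked for their change. Without them 9 of 103 were called, 8.74% beside 5.80% of all tested genes, 8 higher and 1 lower. With the prefix 11 libraries alone 5 of the 107 were called, where 1.75% of all genes were. These 5 include Ccnd1 and Pcna, which are among the genes that the study picked for their change. Summed fibroblast markers were higher and summed cardiomyocyte markers lower in every DE library than in every FA library, and erythroid and endothelial markers were mostly higher. The cardiomyocyte sum includes Myh6, at a mean of 23299 CPM in FA and 14622 CPM in DE, and several other cardiomyocyte markers were near 0 in log2 fold change. All 4 atrial markers were higher and none was called. Of 7 smooth muscle and pericyte markers, 5 were higher and 2 lower in DE, with none called. Their sum was 1142 to 1784 CPM in FA and 810 to 1228 CPM in DE. Most of that sum was Acta2, which alone averaged 1151 CPM in FA and 746 CPM in DE. The part of any of these cells in these differences was not tested.

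Of 33 tested p53 targets other than the members, 4 were called higher, 1 was called lower and 28 were not called, with a median log2 fold change of 0.15. Pidd1, which encodes a death domain protein that assembles a caspase-activating complex, rose from 2.81 to 4.08 CPM in FA libraries to 5.22 to 6.11 CPM in DE libraries, a log2 fold change of 0.81 (adjusted p = 0.0160). Siva1, a proapoptotic gene, rose by 0.69 (adjusted p = 0.0298), and Sfn, the 14-3-3 protein that holds cells in G2, by 0.75, from 1.63 to 2.26 CPM in FA to 2.66 to 4.07 CPM in DE (adjusted p = 0.0451). Ephx1, an epoxide hydrolase that also acts on foreign compounds, rose by 0.70 (adjusted p = 0.0468). Rrm2b, a ribonucleotide reductase subunit that supplies nucleotides for repair, fell from 29.7 to 40.0 CPM in FA to 24.4 to 28.3 CPM in DE, a log2 fold change of -0.45 (adjusted p = 0.0453). None of the 33 was called without FA replicate 2, FA replicate 4 or DE replicate 3, where 1.69%, 1.53% and 1.82% of all genes were called, and 2 to 5 were called without 1 of the other libraries, where 2.80% to 7.93% of all genes were. Over 21 alternatives, Sfn and Rrm2b were not called in 11 each, Ephx1 in 9, Siva1 in 7 and Pidd1 in 5. None of these 5 was called with the prefix 11 libraries alone, with adjusted p from 0.0773 to 0.292, and Sfn was not called with offsets for length and GC content (adjusted p = 0.0568). Cdkn1a, whose protein p21 halts the cell cycle, had a log2 fold change of 0.34 (adjusted p = 0.127), and Gtse1, a G2 and S phase gene that restrains p53, one of 0.51 (adjusted p = 0.0720).

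Of 25 tested regulators and partners of p53, 1 was called, and the median log2 fold change was -0.12. Chek1, the checkpoint kinase of stalled replication, rose from 7.52 to 10.4 CPM in FA to 12.6 to 17.4 CPM in DE, a log2 fold change of 0.80 (adjusted p = 0.0102). The next in order of p was Trp53bp1, a protein of broken DNA ends, with a log2 fold change of -0.30 (adjusted p = 0.0797). Cdkn2a and Trp73 were too low to be tested.

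Of 14 tested genes of the Bcl2 family other than the members, 3 were called, all higher in DE, and the median was 0.06. Bnip3, a mitochondrial protein of mitophagy and hypoxia, rose from 80.1 to 95.3 CPM in FA to 154 to 215 CPM in DE, a log2 fold change of 1.11 (adjusted p = 0.000628). Bok, a pore-forming relative of Bax, rose by 0.76 (adjusted p = 0.0101). Bcl2l1, which encodes the survival protein Bcl-xL, rose from 12.7 to 15.5 CPM in FA to 17.1 to 28.0 CPM in DE, a log2 fold change of 0.69 (adjusted p = 0.0254). It was not called without FA replicate 2, FA replicate 4, DE replicate 3 or DE replicate 7 (adjusted p from 0.0505 to 0.0917). Bcl2, another survival gene, did not pass, at 0.42 (adjusted p = 0.0640), though its groups did not overlap.

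Of 17 tested partners and downstream kinases of Gadd45, 2 were called, and the median was 0.01. Pcna, the sliding clamp of replication, rose from 75.1 to 98.3 CPM in FA to 123 to 146 CPM in DE, a log2 fold change of 0.73 (adjusted p = 0.00498). Cdk1, the mitotic kinase, rose by 0.63 (adjusted p = 0.0106), a call lost when FA replicate 4 was left out (adjusted p = 0.0525). With the prefix 11 libraries alone, and with the 25% difference built into the test, Cdk1, Ccne1, Chek1 and Bok were not called, with adjusted p from 0.0508 to 0.117. Pcna and Cdk1 belong, with Ccnd1 and Ccne1, to the 4 genes that the study groups under GADD45 signaling. These last 2, the cyclins of G1 and of entry into S phase, rose by 0.87 (adjusted p = 0.00493) and 0.81 (adjusted p = 0.00781). The study chose these 4 on libraries of this series, so neither their calls nor their direction are independent evidence, and they hold no Gadd45 gene. Of 16 immediate early genes, which respond to dissociation of tissue, none was called by the quasi-likelihood test, 2 had an unadjusted p under 0.05, and DESeq2 called 1. The smallest p were those of Klf2 (log2 fold change 0.56, adjusted p = 0.0580) and Ier2 (0.41, adjusted p = 0.119).

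**Figure D5:**
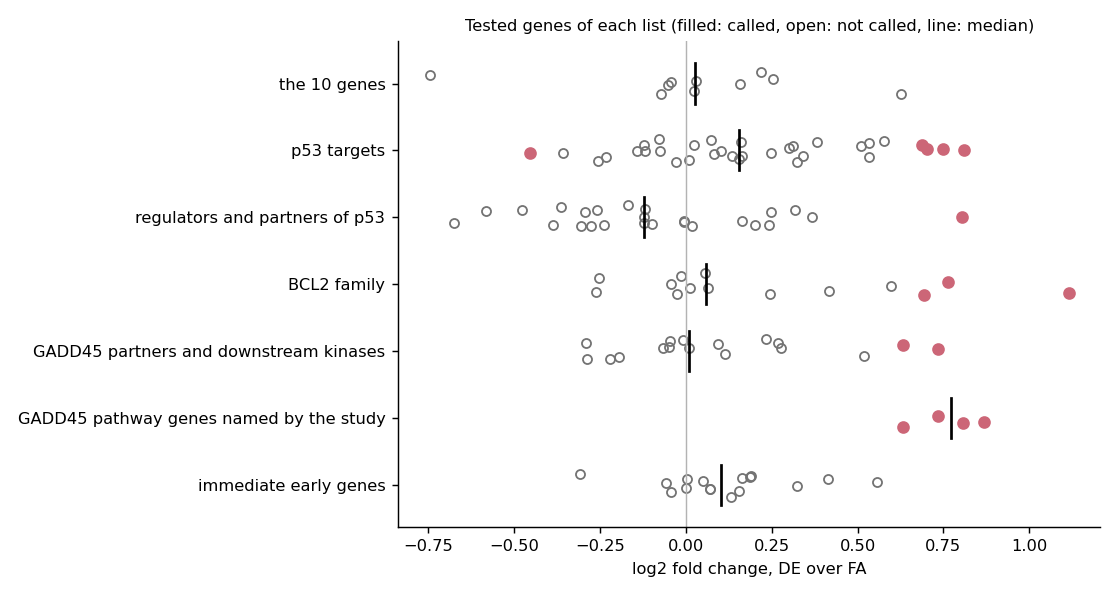
Log2 fold change of DE over FA for the tested genes of each list, with filled points for called genes, open points for the others and a line at the list's median; vertical scatter within a list has no meaning. No gene among the 10 is called, and 12 of the 13 called genes of the other lists lie on the side of higher levels in DE, 4 of them the genes that the study picked for their change.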

How the data were processed

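RNA from NCMs was sequenced by the study from stranded poly-A libraries, and reads were aligned to mm10 with Tophat. Duplicates were marked and not removed, and fragments were counted with featureCounts. What the authors deposited are raw, unnormalized counts for each Entrez gene. Strand use in counting and the handling of reads with several matches are not given in the sources used here. Identifiers were matched to symbols through RefSeq (25275 of 27179), and exon length and GC content came from GENCODE vM21, for 92.55% of tested genes.

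Genes were kept by filterByExpr (minimum 10 counts), scaled by TMM and tested with edgeR 4.0.16 (quasi-likelihood test, exposure as the only term) in R 4.3.3, with Benjamini-Hochberg adjustment over 14966 genes. The study used edgeR and the same 25% and 0.05 thresholds. Between-library variation was 15.9%. The closest 2 libraries of a group (FA replicates 2 and 4) had a chi-square of 5.06 per gene and the other pairs 16.0 to 62.8. All exceed counting noise, so none was taken as a repeat deposit, though this does not show that the 2 came from separate hearts. The study's methods state 3 hearts per group, and which libraries it used is not given in the sources used here. Intervals cover 95%. Duplicates left in the counts are not independent molecules.

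The members and lists were chosen with earlier results of these data known. Named genes were all members, up to 6 called genes of each list with the smallest p, the 2 smallest p where fewer than 2 were called, Bcl2, and genes overlapping a member. Cdkn1a and Gtse1 were named for their promoter sites. Alternatives were DESeq2 1.42.0, limma-voom (limma 3.58.1), the likelihood ratio test, the 25% difference built into the test, other scaling and filters, name prefix as a term, prefix 11 alone and each library left out. Offsets for length and GC content (5-degree-of-freedom splines) and all alternatives of the prefix comparison were chosen after seeing the data. The code was tested on simulated data.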

Additional observations from a re-analysis of the deposited data

Results flagged for a closer look

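Trp53 stood at 61.1 CPM in FA replicate 6, and the nearest of the other 3 FA libraries was at 46.4 CPM. This gap took a larger share of the range of the 4 libraries than Dixon's 95% critical value allows, among 30 sets of 4 values examined, of which chance alone gives about 1 in 20. The DE libraries of the 2 name prefixes differed by a test of the difference itself in Mdm4 (log2 difference -1.19), Trp53inp1 (-0.97) and Gadd45g (0.71), with prefix 12 minus prefix 11 as the direction. Each prefix had 2 DE libraries, and Mdm4 was lower in both prefix 12 libraries than in both others, as was Trp53inp1, while Gadd45g was higher in both.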

How the results depend on the processing

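Of 210 results for a member under an alternative, 179 kept their direction and their side of the threshold, 8 passed the threshold that they had missed, 23 changed sign and none was lost, since no member was called to begin with. The count of called members was 1 with DESeq2, the likelihood ratio test, scaling by library totals alone, no low-count filter and the length and GC offsets, and 0 to 2 with a library left out. The count of all called genes, 868, was 1633 with DESeq2, 1603 with the likelihood ratio test, 114 with the 25% difference built into the test, 448 with the name prefix as a term, 260 with prefix 11 alone, 1549 with offsets and 237 to 1168 with a library left out. It moved by over 1.5 times without FA replicate 2 (249), FA replicate 3 (433), FA replicate 4 (237), DE replicate 3 (268) or DE replicate 5 (526). Called pathway genes, 13, numbered 3 with the difference built in, 5 with prefix 11 alone and 6 to 14 with a library left out, fewest without FA replicate 4 (6), FA replicate 2 (7) or DE replicate 3 (7). The 3 members called between the DE prefixes became 0 with the difference built in (3 genes called in all), 1 with library totals alone (99), 4 with DESeq2 (973), the likelihood ratio test (1314) or no low-count filter (1119), 2 with offsets (160) and 0 to 4 with a library left out (0 to 1037).

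Signs changed as follows, none of them called. Trp53inp1 was at -0.047 with limma-voom and -0.17 to 0.18 with a library left out. With library totals alone Ccng1 was at 0.0276 and Gadd45b at 0.0216. With the prefix as a term, Trp53 was at -0.0576, Ccng1 at 0.0343, Gadd45a at -0.16 and Gadd45g at -0.19, and with prefix 11 alone they were at -0.0622, 0.0299, -0.17 and -0.19. With offsets Bax was at -0.0502, Ccng1 at 0.0223, Gadd45a at -0.13 and Gadd45g at -0.0805. With a library left out, Gadd45b ranged from -0.0984 to 0.0265 and Gadd45a from -0.0850 to 0.0955. With prefix 11 alone the log2 ratio of Gadd45a to Gadd45g differed by 0.0351 and that of Gadd45b to Gadd45g by 0.0092. The cause of these changes was not tested. No paired analysis was possible because the groups share only 1 replicate number, 3. Leaving out a DE library leaves its prefix with 1 library, assumed to vary like the others.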
